A study of Homo sapiens with 121 samples.

Results

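Embryonic stem cells keep the genes of later cell types low. When they leave this state, transcription factors such as T, EOMES and MIXL1 mark the primitive streak, from which mesoderm and endoderm arise, SOX17, FOXA2 and GATA6 mark endoderm, HAND1 and TBX6 mark mesoderm, PAX6 and SOX1 mark the neural plate, and CDX2 and GATA3 mark trophoblast. BMP ligands push pluripotent cells towards several of these fates and raise the ID genes, whose products block basic helix-loop-helix factors. Other genes that are used as lineage markers, such as the keratins KRT8 and KRT18, are also read in undifferentiated cells.

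The genes described are 43 germ layer and early lineage markers, a list of symbols, all of which were among the 25610 genes read in 121 single cells. The cells are undifferentiated hESCs of WA26, an established human embryonic stem cell line that was grown on Matrigel in E8 medium without feeder cells, and no treatment is named for them. In scT&R-seq, the polyadenylated RNA of 1 cell is captured on an oligo-dT primer and sequenced, and its genomic DNA is kept for a qPCR of telomere length. By their labels, 81 cells had long, 25 medium and 15 short telomeres. No culture is named for any cell, so each group counts as 1 sample of 1 line, and no p-value was computed. Spreads across cells are spreads between cells and not between cultures. Expression is given as TPM (a share of all transcripts that is corrected for transcript length), as deposited, and sequencing depth is unknown from TPM. Detection of a gene means a TPM above 1.

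The number of detected genes differed between the groups. It ran from 4002 to 11515 in the long group, from 4189 to 10481 in the medium group and from 2030 to 10045 in the short group, with medians of 9165, 8626 and 5620. Cells were therefore also taken apart at 8000 detected genes. The gene-rich set of 68 cells comprised 51 of the long, 14 of the medium and 3 of the short group, and the gene-poor set of 53 cells comprised 30, 11 and 12. The labelled cell type was checked on 9 embryonic stem cell markers, all of which were detected in at least 85.1% of the cells, with POU5F1 between TPM 75.8 and 2135. Among fibroblast markers, LUM and COL3A1 were detected in 0 cells and DCN in 1, whereas COL1A2 was detected in 77 and COL1A1 in 21. Of the blood markers, HBB and CD14 were detected in 0 cells, CD3E in 2 and PTPRC in 18, and their summed TPM reached at most 11.6.

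The 43 markers fell into 3 classes. With silent defined as detection in under 5% of the cells and common as 50% or more, 16 markers (37.2%) were silent, 15 (34.9%) sporadic and 12 (27.9%) common. Over all genes read, the shares were 40.6%, 28.5% and 30.8%. In number, the markers thus divided much as the whole table did. Never above TPM 0 were 3 markers (6.98%), against 17.7% of all genes. The common class held 3 filament genes (KRT8, KRT18 and VIM) beside NES, the targets ID1, ID2, ID3 and HES1, the factors OTX2, SIX3 and TFAP2C, and the receptor KDR.

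Nearest to the lower limit, MESP1 was detected in 6 cells (4.96%) and GATA3 in 7 (5.79%). At the upper limit, MIXL1 and KRT7 were detected in 46 cells (38%) each, and KDR in 67 (55.4%; exact 95% binomial interval 46.1 to 64.4%). No marker lay between them. Intervals here cover the counting of cells only.

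**Figure D1:**
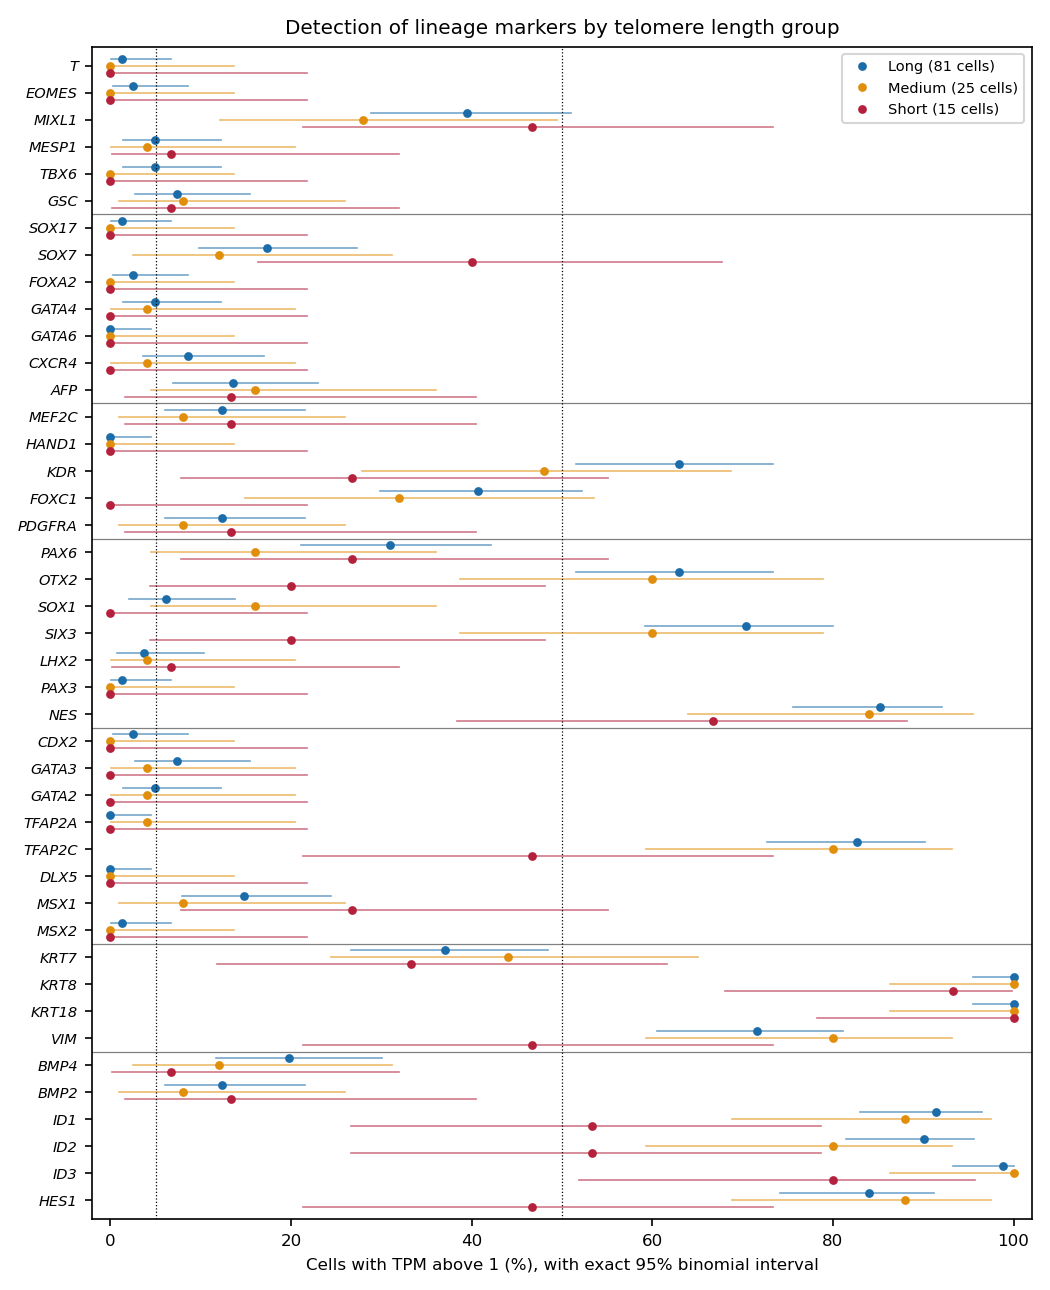
Percentage of cells with TPM above 1 (horizontal axis) for each of the 43 markers, ordered by lineage, in 81 long, 25 medium and 15 short telomere cells. Points are percentages, bars exact 95% binomial intervals, and dotted lines mark 5% and 50%; GATA6, HAND1 and DLX5 lie at 0% in each group, and KRT18 at 100%.

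Of the 6 primitive streak and mesendoderm markers, 4 were silent and none was common, where 40.6% and 30.8% of all genes were. T (brachyury), a T-box factor of the primitive streak, was detected in 1 cell, at TPM 6.28 in a long telomere cell. EOMES, a T-box factor of the same region, was detected in 2 cells, at TPM 14.9 and 2.71. TBX6, a factor of presomitic mesoderm, was detected in 4 cells with a highest TPM of 3.77, and MESP1, of early cardiac mesoderm, in 6 with a highest TPM of 31.9. GSC, a homeobox factor of the organizer, was detected in 9 cells (7.44%) and reached TPM 27.6. MIXL1 differed from the others of its list. This homeobox factor of the primitive streak was detected in 46 cells, with a median TPM of 0.52 and a highest TPM of 104.

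The endoderm markers were silent or sporadic throughout. GATA6, a zinc finger factor of primitive and definitive endoderm, had TPM 0 in all 121 cells, and 0 of 121 allows a share of up to 2.48% when 3 cells are taken as the limit of a count of 0, or 3% as the upper end of the exact 95% binomial interval. SOX17 was detected in 1 cell at TPM 1.6, FOXA2 in 2 cells and GATA4 in 5. CXCR4, a chemokine receptor used to sort definitive endoderm, was detected in 8 cells (6.61%) and reached TPM 36.2. AFP, the fetal serum protein of yolk sac and liver, was detected in 17 cells (14%) and reached TPM 29.6. SOX7, an SRY-box factor of extraembryonic endoderm and endothelium, was detected in 23 cells, at up to TPM 48.4. The annotation places SOX7 in overlap with PINX1 on the same strand, so reads of the pair could be mixed.

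In the mesoderm list, HAND1 was never above TPM 0, with the same limits, and KDR was common. HAND1 is a helix-loop-helix factor of lateral mesoderm, heart and trophoblast. KDR, the VEGF receptor of blood and endothelial precursors, had a median TPM of 2.24 and a highest of 145. FOXC1, a forkhead factor of paraxial mesoderm, was detected in 41 cells (33.9%) at up to TPM 41.8. MEF2C and PDGFRA were each detected in 14 cells (11.6%), and neither passed TPM 9.05.

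Neural markers were split. OTX2, a homeobox factor that is also expressed in the epiblast, was detected in 69 cells (57%) with a median TPM of 5.62 and a highest of 276. SIX3, a homeobox factor of the anterior forebrain and eye, was detected in 75 cells (62%) with a median TPM of 4.47 and a highest of 103. NES, the intermediate filament protein of neural precursors, was detected in 100 cells (82.6%) with a median TPM of 15.6. The factors of the neural plate and dorsal neural tube were rarer, with PAX6 in 33 cells (27.3%), SOX1 in 9, LHX2 in 5 and PAX3 in 1. PAX6 reached TPM 114 in medium telomere cell 24, whereas the highest long telomere cell had TPM 36.8.

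Trophoblast and surface ectoderm factors were silent in 5 of 8 cases, where 40.6% of all genes were silent. DLX5 stayed at TPM 0 in every cell, TFAP2A and MSX2 were each detected in 1 cell, CDX2 in 2 and GATA2 in 5. CDX2, the caudal factor of trophectoderm, had TPM 22.3 and 2.17 in its 2 cells. GATA3 was detected in 7 cells and MSX1, a homeobox factor, in 18 (14.9%). TFAP2C stood apart from its paralog TFAP2A. This AP-2 factor of trophoblast and germ cells was detected in 94 cells (77.7%) with a median TPM of 11.2 and a highest of 95.7.

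Among the intermediate filament genes, KRT18 had the highest mean TPM of the 43 markers. It was detected in all 121 cells, with a mean of 903, which ranked 208 of the 25610 genes. KRT8, which encodes its partner in the filaments of simple epithelia, was detected in 120 cells, with a mean TPM of 196 and rank 777. KRT7, a keratin of glandular and trophoblast epithelia, was detected in 46 cells, with a median TPM of 0 and a highest of 207. VIM, the filament protein of mesenchymal cells, was detected in 85 cells (70.2%) with a median TPM of 15.3 and a highest of 426. The annotation (GRCh37) lists KRT8 at chr12:53290971-53343738 on the minus strand and KRT18 at chr12:53342655-53346690 on the plus strand, so that the ends of both overlap, and it names 51 and 68 pseudogenes after them. How reads of such copies were assigned is not given in the sources used here, and the levels of both keratins are uncertain in that respect.

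Among the BMP ligands and ID and HES targets, ligands were sporadic and targets common. BMP4 was detected in 20 cells (16.5%) and BMP2 in 14 (11.6%), each with a median TPM of 0. Single cells were nevertheless high, with TPM 117 for BMP4 in long telomere cell 45 and TPM 350 for BMP2 in long telomere cell 4, where the next highest cell had TPM 36.4. ID3 was detected in 117 cells (96.7%) with a median TPM of 140, ID1 in 104 (86%) with 119, and ID2 in 101 (83.5%) with 76.5. By mean TPM they ranked 691, 955 and 1304 among all genes. HES1, a repressor downstream of Notch, was detected in 97 cells (80.2%) with a median TPM of 10.9. Of 19 other BMP pathway genes, 9 were common, where 30.8% of all genes were. Examples were the receptor BMPR1A in 90 cells, the signal transducer SMAD5 in 103 and the decoy receptor BAMBI in 65. The secreted antagonists NOG and CHRD were detected in 1 and 3 cells and GREM1 in 0.

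The upstream sequences of the ID genes are shown because these 3 targets were common and each had a higher mean in long than in short telomere cells, as given further on. Each run is the 250 bases before the start site in RefSeq (GRCh38.p14), 5′ to 3′ on the gene's strand, with CCAAT in capitals on either strand (ATTGG on the reverse).
ID1 (chr20:31605039-31605288, plus strand): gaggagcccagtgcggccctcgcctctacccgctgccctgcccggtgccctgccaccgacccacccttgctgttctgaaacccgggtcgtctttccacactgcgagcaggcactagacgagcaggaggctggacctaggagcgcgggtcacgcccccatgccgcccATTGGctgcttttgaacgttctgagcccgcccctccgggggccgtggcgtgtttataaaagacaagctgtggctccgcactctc
ID2 (chr2:8681806-8682055, plus strand): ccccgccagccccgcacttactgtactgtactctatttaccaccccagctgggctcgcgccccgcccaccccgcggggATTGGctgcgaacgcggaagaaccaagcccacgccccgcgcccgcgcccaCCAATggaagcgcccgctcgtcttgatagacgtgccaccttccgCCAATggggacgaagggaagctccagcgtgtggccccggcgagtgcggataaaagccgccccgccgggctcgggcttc
ID3 (chr1:23559502-23559751, minus strand): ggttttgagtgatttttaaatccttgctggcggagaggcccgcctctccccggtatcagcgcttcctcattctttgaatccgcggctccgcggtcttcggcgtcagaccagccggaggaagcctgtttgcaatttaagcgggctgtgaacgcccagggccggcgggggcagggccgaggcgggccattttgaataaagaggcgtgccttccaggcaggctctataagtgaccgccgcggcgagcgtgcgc
The letters CCAAT occur 1 time in the window of ID1, 3 times in that of ID2 and 0 times in that of ID3, and 32% of 35116 promoter windows of this length hold them. The letters GGCGCC, a GC-rich element to which SMAD proteins of the BMP pathway can bind, occur in none of the 3 windows and in 16.4% of all windows. Sequence farther upstream than 250 bases was not searched, so the windows cannot show whether the ID genes have this element elsewhere. CpG counts were 19, 29 and 24, against a median of 11 over all windows (5th to 95th percentile 0 to 35). The windows of HAND1 and GATA6, which had TPM 0 in every cell, each had a CpG count of 16 and CCAAT 1 time. GGCGCC occurred 1 time in that of GATA6 and 0 times in that of HAND1. Promoter entries were found for 32 of the 43 markers (74.4%), too few for a statement over the list.

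For comparison between telomere groups, differences were taken between means of log2(TPM + 1), which understate changes of genes with low TPM. Of the 43 markers, 31 were detected in at least 5 cells and entered these comparisons with 15956 genes in all. A difference of at least 1 on this scale was counted.

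Between long and short telomere cells, 9 of the 31 markers (29%) were higher in the long group by at least 1, where 32.7% of all genes were. No marker (0%) was higher in the short group by that much, against 3.18% of all genes. The median difference over the 31 markers was 0.29 and over all genes 0.50. The markers as a list were thus not raised beyond the genes at large. The 9 were ID1, ID2, ID3, OTX2, SIX3, KDR, FOXC1, TFAP2C and KRT8. In gene-poor cells, the count was 6 of 31 (19.4%) against 22.3% of all genes. These were ID1, ID2, ID3, OTX2, TFAP2C and KRT8. MIXL1 was higher in the short group (3.23% against 6.33% of all genes). The gene-poor set was not even in detected genes, which started at 2030 in its short and at 4002 in its long telomere cells.

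Short telomere cells also had fewer detected genes and less NANOG, a core pluripotency factor, with a median TPM of 30.6 against 205 in long telomere cells and a difference of 3.21. The part of either in the marker differences was not tested.

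The ID genes had 3 of the 6 largest differences. ID1 had a lowest, median and highest TPM of 0, 141 and 602 with long telomeres, 0, 115 and 334 with medium telomeres and 0, 14.5 and 394 with short telomeres. It was detected in 91.4%, 88% and 53.3% of them. The ranges overlapped from 0 upwards, and the groups differed in the share of cells in which ID1 was detected. The long minus short difference was 2.79, from 6.34 ± 2.53 to 3.55 ± 3.64 (mean ± SD across 81 and 15 cells), and the cell with long telomeres had the higher value in 68.8% of all long and short pairs. It ranked 321 of 15956 genes. Among gene-poor cells the difference was 2.04, with 76.7% of 30 long and 41.7% of 12 short telomere cells detected. In the gene-rich set, ID1 was detected in every cell, including the 3 of the short group at TPM 50.1, 180 and 394.

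ID2 followed the same order, at median TPM 84.8, 71.5 and 18 and detection in 90.1%, 80% and 53.3% of long, medium and short telomere cells. Its lowest TPM was 0 in each group and its highest 533, 627 and 401, so that the groups overlapped over almost the whole range. The long minus short difference was 2.25 in all cells, 1.93 in gene-poor cells and 1.44 without cells under 4000 detected genes. ID3 had median TPM of 140, 194 and 88.8, highest TPM of 1464, 673 and 635, and detection in 98.8%, 100% and 80% of the cells. Medium telomere cells had the highest median of ID3, and its lowest TPM there was 13.2. The long minus short difference of ID3 was 1.45 in all cells and 1.93 in gene-poor cells, and 1.02 with the 11 short telomere cells of at least 4000 detected genes. HES1 differed by 0.59 in all and 0.20 in gene-poor cells, and its highest value, TPM 491, was in short telomere cell 5. Without this cell the difference of HES1 was 1.03.

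**Figure D2:**
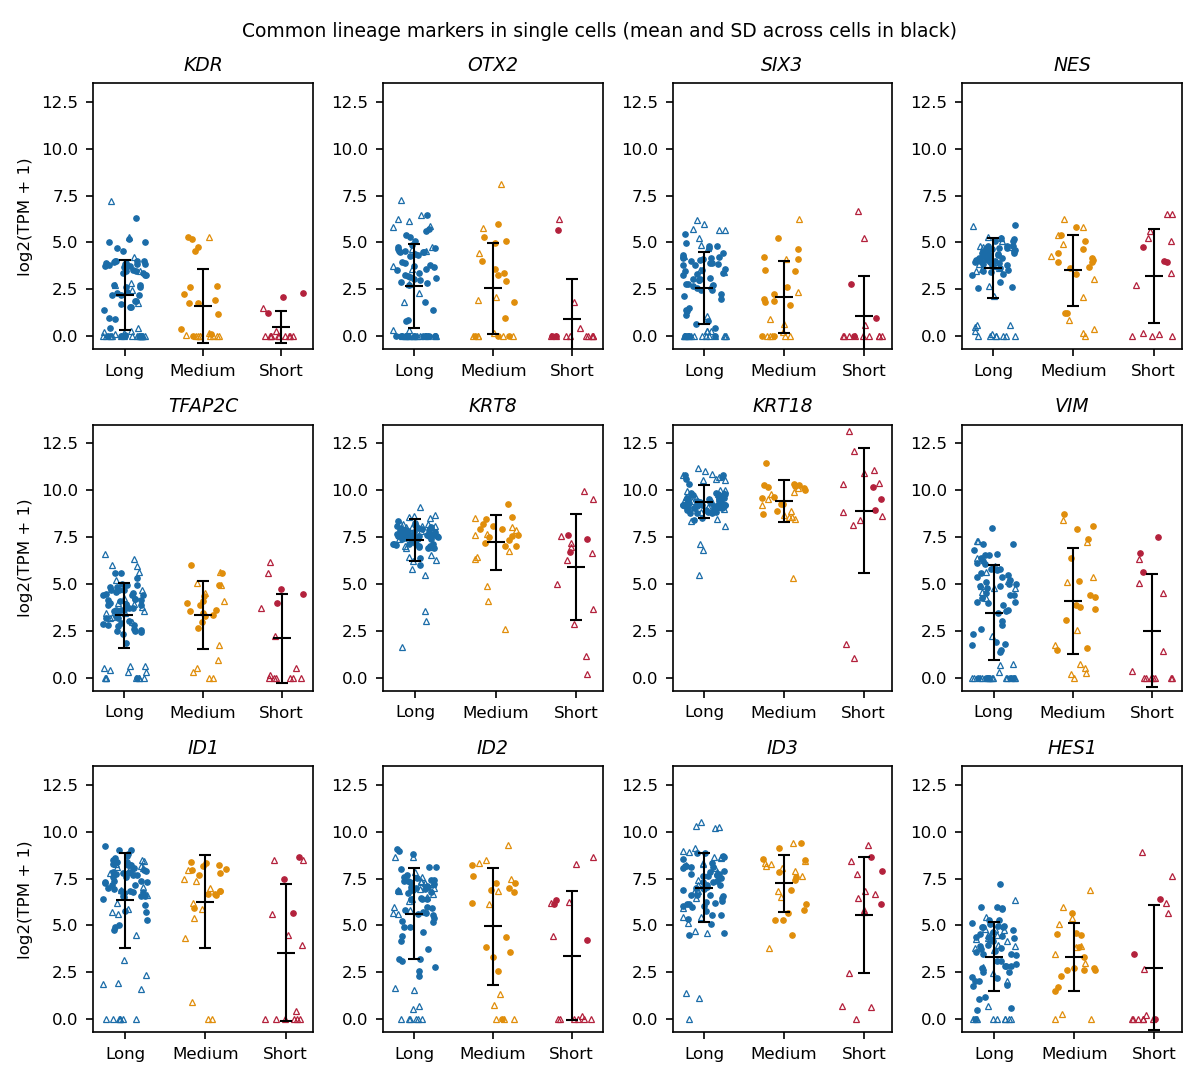
log2(TPM + 1) of the 12 common markers in single cells (vertical axis), by telomere length group; filled circles are cells with more than 8000 detected genes, open triangles the others, and black bars give mean and SD across the cells of a group. ID1 and ID2 show cells at 0 in each group, in a larger share of the short telomere cells, which are mostly triangles.

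Of the BMP pathway list, 5 of 16 genes with enough cells were higher in long telomere cells by at least 1, where 32.7% of all genes were, and 0 in short, and in gene-poor cells 1 of 16 was, where 22.3% of all genes were. BMPR1A differed by 1.99 in all and 1.25 in gene-poor cells, and SMAD5 by 1.12 and 0.58. The median difference over the 16 was 0.95, against 0.50 over all genes, and in gene-poor cells 0.48 against 0.21. The count in all cells was thus near that of genes at large. Both ligands differed little, BMP4 by 0.35 and BMP2 by 0.14.

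OTX2 and SIX3 were detected in 63% and 70.4% of long, 60% each of medium and 20% each of short telomere cells. For OTX2, the lowest TPM was 0 in each group and the highest 150, 276 and 73.9 for long, medium and short. The highest TPM of SIX3, 103, lay in short telomere cell 8. Their long minus short differences were 1.73 and 1.50, and in gene-poor cells 1.52 and 0.95. KDR was detected in 63%, 48% and 26.7% of the groups, and its difference of 1.71 fell to 0.89 in gene-poor cells. KDR was detected in 83.8% of gene-rich and 18.9% of gene-poor cells, with a difference in level of 2.03. Of all genes, 40.7% were higher in the gene-rich set by at least 1. FOXC1 was detected in 40.7% of long and 32% of medium telomere cells and in 0 of 15 short telomere cells, which allows a share of up to 20% by the limit of 3 cells. Its difference was 1.18 and in gene-poor cells 0.70. FOXC1, OTX2 and SIX3 were detected in 51.5%, 70.6% and 83.8% of gene-rich cells. In gene-poor cells, to which most short telomere cells belonged, the shares were 11.3%, 39.6% and 34%.

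TFAP2C was detected in 82.7%, 80% and 46.7% of long, medium and short telomere cells, with a long minus short difference of 1.24 and 1.11 in gene-poor cells. KRT8 had median TPM of 190, 193 and 103, from a lowest of 2.14, 5.13 and 0.14 to a highest of 540, 604 and 977. Its spread was widest in short telomere cells, which held both its lowest and its highest value, and the difference was 1.43, and 1.50 in gene-poor cells. With only the 11 short telomere cells of at least 4000 detected genes, the difference of KRT8 was 0.32, that of TFAP2C 0.48 and that of KRT18 -0.52. Each was lower than in all cells. The share of all genes higher in the long group by at least 1 was then also lower, 24.5% against 32.7%. Between medians of all cells, TFAP2C differed by 3.12. KRT18 had median TPM of 654, 777 and 751 and differed by 0.50, with the long telomere cell higher in 48.9% of the pairs. Its SD on the log2 scale was 0.89 in long and 3.34 in short telomere cells, where it ran from TPM 1.08 to 9115. VIM differed by 0.98, just under the limit, and leaving out any 1 of short telomere cells 1, 3, 5, 9, 10 and 13 gave 1.12 to 1.34, and leaving out any 1 of 25 long telomere cells gave 1.00 to 1.02. NES, with median TPM of 15.8, 14.8 and 14.6, changed sign from 0.42 to -0.34 in gene-poor cells.

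Higher means in the short group were found for MIXL1, SOX7, MSX1 and a few others. MIXL1 was detected in 39.5% of long, 28% of medium and 46.7% of short telomere cells, with highest TPM of 56.5, 43 and 104. The long minus short difference was -0.89 in all cells and -1.36 in gene-poor cells. In all cells it was -0.29 between medians in place of means, and -0.44 with a pseudocount of 10. Leaving out any 1 of short telomere cells 9, 10, 11, 13, 14 and 15, in which MIXL1 was low, gave -1.03 to -1.04. SOX7 was detected in 17.3%, 12% and 40% of the groups and differed by -0.52 (0.19 between medians), and MSX1 in 14.8%, 8% and 26.7%, with -0.44.

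**Figure D3:**
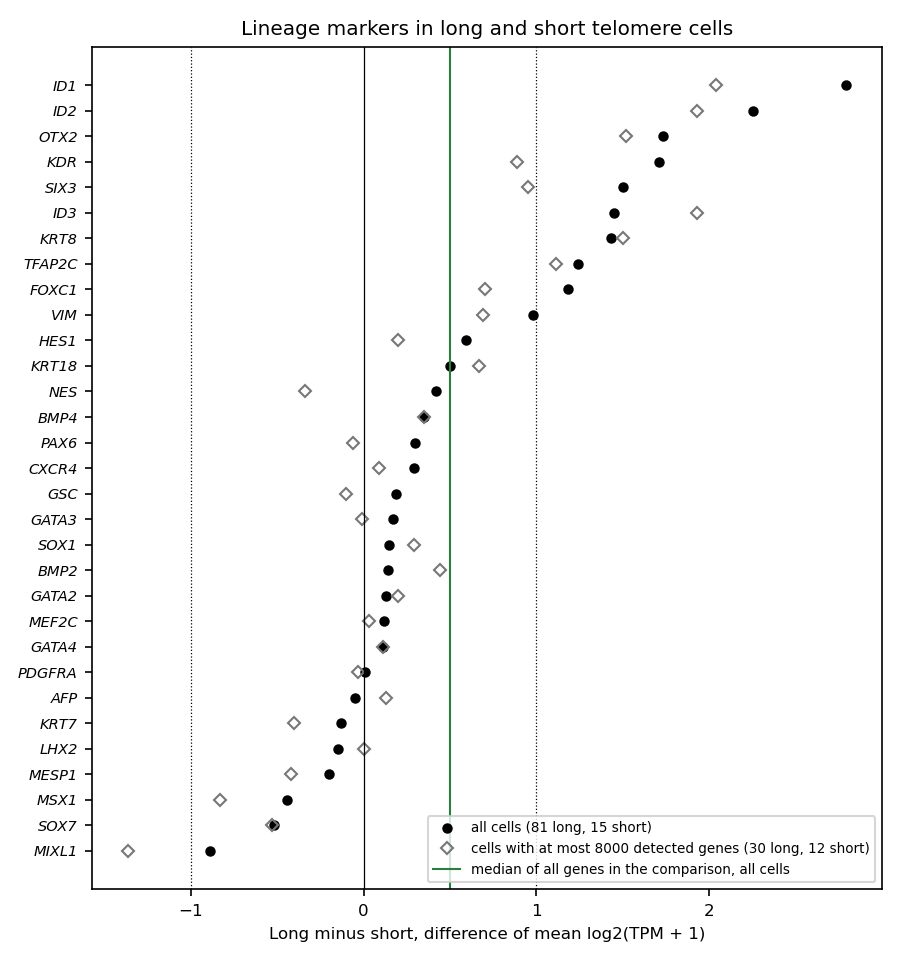
Difference of mean log2(TPM + 1), long minus short telomere cells (horizontal axis), for the 31 markers detected in at least 5 cells; filled circles use all cells, open diamonds the gene-poor cells, dotted lines mark a difference of 1 and the green line the median of all genes, 0.50. ID1 and ID2 lie farthest to the right, at 2.79 and 2.25, and MIXL1 farthest to the left, at -0.89.

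Long and medium telomere cells were close. None of the 31 markers differed by at least 1, 0% in either direction, where 0.752% of all genes were higher in the long and 0.326% in the medium group. The median difference was 0.09 over the markers and 0.08 over all genes. The widest were ID2 at 0.68, from 5.63 ± 2.44 to 4.95 ± 3.14, VIM at -0.61, and KDR at 0.60, each below the spread (SD) of the cells in both groups. In gene-rich cells alone, 0 of 31 markers differed by that much, where 0.815% of all genes were higher in the long and 0.57% in the medium group, and in gene-poor cells again 0, where the shares were 5.03% and 4.37%. Between medium and short telomere cells, 9 of 31 markers were higher in the medium group (29%, against 28.5% of all genes) and 1, MIXL1, in the short group (3.23% against 3.48%).

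Between gene-rich and gene-poor cells, 8 of 31 markers (25.8%) were higher in the gene-rich set by at least 1, against 40.7% of all genes, with medians of 0.37 and 0.74, and 0 were higher in the gene-poor set, against 0.363%. ID1, at 3.13, and VIM, at 2.34, had the widest differences. ID3 differed by 0.36 only and was detected in 92.5% of gene-poor cells, against 67.9% for ID1 and 64.2% for ID2. The ID genes were thus unlike each other in this respect.

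A cell had a median of 13 of the 43 markers detected, and a range from 2 to 20. By group, the median was 14 for long (range 4 to 20), 13 for medium (4 to 16) and 8 for short telomeres (2 to 18). In gene-rich cells it was 15 and in gene-poor cells 9. Within the gene-poor cells the number of markers went with the number of detected genes, with Pearson's r of 0.734 (Spearman's rho 0.728, 53 cells), and less so in gene-rich cells, with 0.289 (0.243, 68 cells). As a share of detected genes, the markers made up 0.16% for the long group, 0.153% for the medium group and 0.158% for the short group. These shares over all 43 markers were thus near each other once the number of detected genes was taken as the base. For the silent and sporadic markers alone, the shares were 0.0367%, 0.0307% and 0.0402% in the same order. They were 0.0414%, 0.0308% and 0.053% in gene-rich cells, the last from 3 cells, and 0.0287%, 0.0304% and 0.037% in gene-poor cells.

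**Figure D4:**
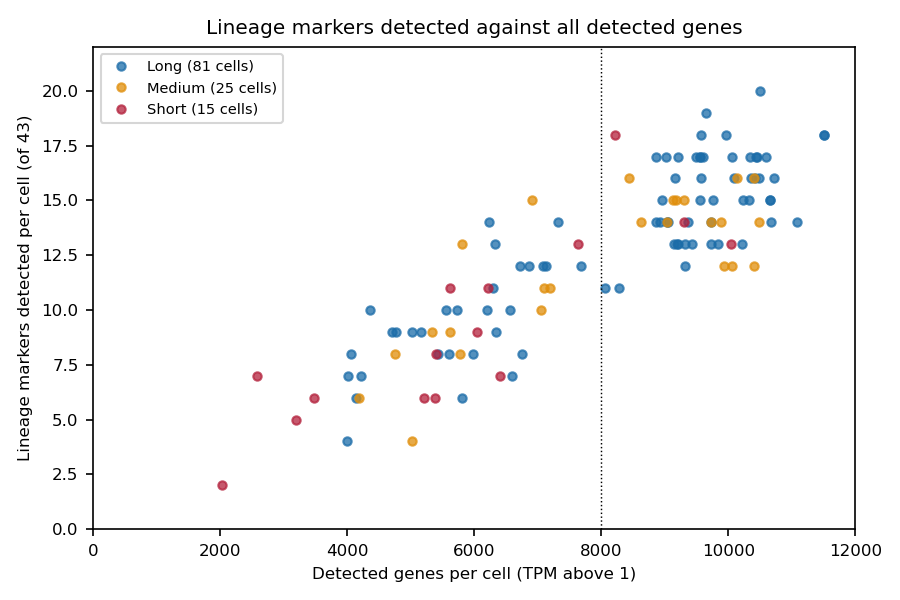
Number of the 43 markers detected in a cell (vertical axis) against all genes detected in it (horizontal axis), 1 point per cell, coloured by telomere length group; the dotted line marks 8000 genes. The points rise from 2 to 20 markers, and short telomere cells lie mostly to the left.

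Silent and sporadic markers were also counted by cell. A cell had a median of 3 of these 31 genes and at most 8, and 10 cells had none. The highest numbers were in long telomere cell 73 with 8, in long telomere cells 39 and 48 and short telomere cell 10 with 7 each, and in several cells with 6, of which long telomere cell 35 had the most detected genes. These 5 cells held markers of several lineages, mostly at low levels. Long telomere cell 73 had TBX6, SOX7, AFP, FOXC1, PAX6, LHX2, MSX1 and BMP4, none above TPM 7.26, beside POU5F1 at 1204, NANOG at 279 and SOX2 at 98.5. Short telomere cell 10 had AFP at TPM 11.9, PAX6 at 3.54, LHX2 at 9.99, KRT7 at 14.3, BMP4 at 14.1, BMP2 at 7.63 and PDGFRA at 3.62, beside POU5F1 at 875, NANOG at 59 and SOX2 at 48.

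A few gene-poor cells had single markers at high levels and were looked at after their values were seen. Short telomere cell 6, with 6046 detected genes, had the highest MIXL1 (TPM 104), MSX1 (29.2) and KRT18 (9115) of all cells, together with KRT7 at 33 and SOX7 at 9.01. In the same cell POU5F1 was at 427, NANOG at 79.1 and SOX2 at 0, and ID2, ID3, VIM and OTX2 were at 0. Long telomere cell 78, with 4058 detected genes, had the highest SOX7 (48.4) and CDX2 (22.3). In it POU5F1 was at 677, NANOG at 94.2 and SOX2 at 0.37. Medium telomere cell 24 had the highest PAX6 (114), KRT7 (207) and ID2 (627), with POU5F1 at 929, NANOG at 3.37 and SOX2 at 216. Long telomere cell 4, with 4366 detected genes, had the highest BMP2 (350) and KDR (145) and also the highest NANOG of all cells (702). Its POU5F1 was at 1537 and its SOX2 at 1.52. Each is 1 cell, and no replicate of it exists.

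Whether markers occurred in the same cells was described by the phi coefficient, the correlation of detected with not detected, over genes detected in 5% to 95% of a set. In the 68 gene-rich cells, 253 pairs of 23 markers had a median phi of 0.0177, against 0.0242 over all 64212778 gene pairs. Of the marker pairs, 2.77% lay above the 95th percentile of all pairs and 5.14% below the 5th. Marker pairs of 1 list had a median of -0.0234 (29 pairs). In the 53 gene-poor cells the median was 0.0402 over 190 pairs, against 0.0533 over all gene pairs, and pairs of 1 list had 0.07 (27 pairs). The medians of marker pairs thus lay near those of all gene pairs in both sets, whereas pairs of 1 list lay below the median of all gene pairs in gene-rich and above it in gene-poor cells.

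The 5 highest pairs in gene-rich cells were MIXL1 with MEF2C, at 0.28, LHX2 with BMP4 and GATA4 with BMP4, each at 0.275, SOX7 with GATA3, at 0.269, and FOXC1 with HES1, at 0.257. MIXL1 and MEF2C were both detected in 10 cells, of 30 with MIXL1 and 14 with MEF2C. The BMP4 pairs rest on 3 cells each. The 5 lowest were SIX3 with BMP2, at -0.349, AFP with SIX3, at -0.344, AFP with HES1, at -0.319, FOXC1 with PDGFRA, at -0.293, and AFP with FOXC1, at -0.264. SIX3 was detected in 9 of the 15 cells with AFP, and in 83.8% of the gene-rich cells. In gene-poor cells the highest was OTX2 with SIX3, at 0.397, with 12 cells that had both, and the lowest SOX7 with ID3, at -0.335.

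For the 12 common markers, levels were also correlated, on log2(TPM + 1), a choice made after the values were seen. The median Spearman's rho of the 66 pairs was 0.00673 in gene-rich cells, against 0.0134 over pairs of all 7900 common genes (5th to 95th percentile -0.217 to 0.243), and 0.075 against 0.0674 in gene-poor cells. The pairs that reached farthest in gene-rich cells were KRT8 with KRT18, at 0.496, NES with VIM, at 0.421, ID1 with ID3, at -0.377, TFAP2C with ID3, at 0.351, and TFAP2C with ID1, at -0.322. Gene-rich cells with more ID1 thus had less ID3 on average. All points come from 1 table, and cells share their normalization. In gene-poor cells NES with VIM had 0.304, KRT8 with KRT18 0.103, and ID1 with ID3 0.0497. TFAP2C had 0.0824 with ID3 and -0.165 with ID1 there.

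**Figure D5:**
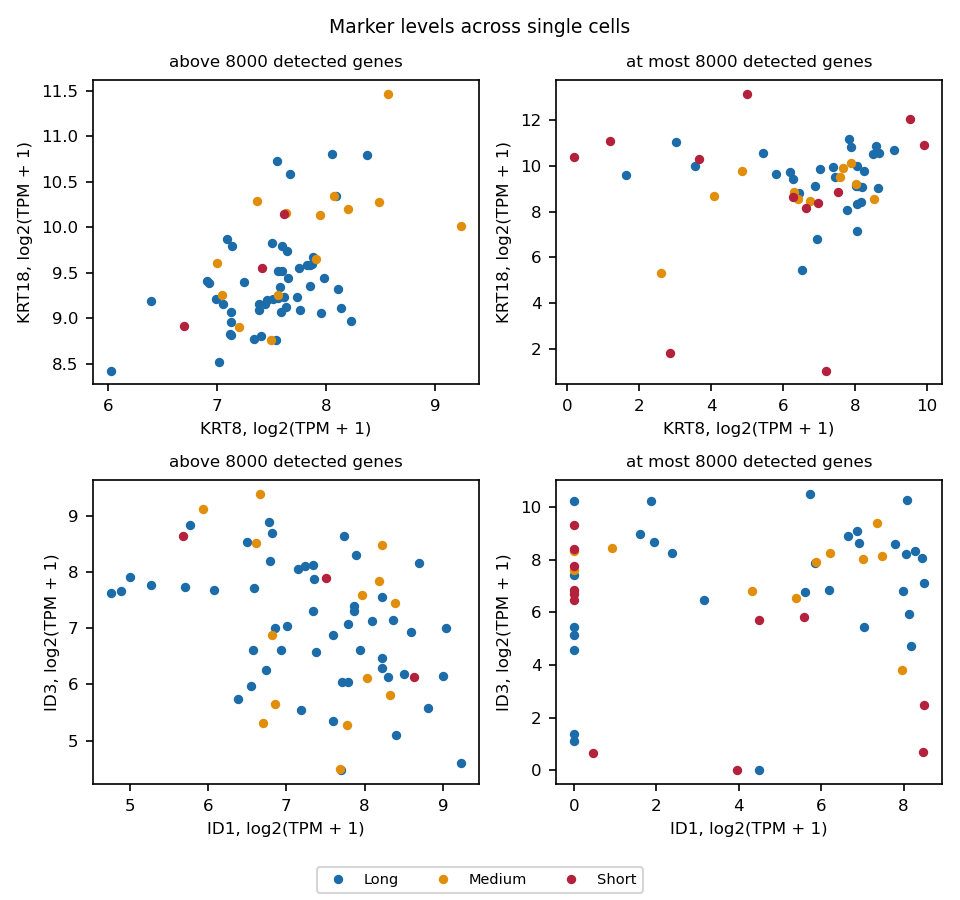
Levels as log2(TPM + 1) of KRT8 (horizontal) against KRT18 (vertical), above, and of ID1 (horizontal) against ID3 (vertical), below, in 68 cells with more than 8000 detected genes (left) and 53 others (right), 1 point per cell coloured by telomere length group. At the left KRT18 rises with KRT8, with a rho of 0.496, and ID3 falls with ID1, with -0.377; at the right the values are 0.103 and 0.0497.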

How the data were processed

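RNA of 121 single WA26 cells was sequenced as 50-bp single-end reads. The authors mapped reads to hg19 with TopHat. For the step from reads to values, the methods name HTSeq on RefGene genes and a size factor function, and the submitters' processing notes name TopHat2 and RSEM. The authors deposited their values as TPM with 2 decimals, and each cell's column adds up to between 979828 and 997050 for the 25610 genes used. The table ends at ZFR, and later symbols were not analysed here. TPM keeps no depth, so no counting error of a value can be given. Columns were matched to cells by title, and groups were taken from the labels. T/R ratios were not used here.

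Detection was TPM above 1. Co-detection used genes detected in 5% to 95% of the cells of a set. Differences used log2(TPM + 1) and genes detected in at least 5 cells. No test was run, since each group counts as 1 sample. The markers and lists were chosen with earlier results of these data known. All markers are accounted for, with group values for those in at least 5% of the cells whose values the text turns on, the 5 highest and 5 lowest phi pairs in gene-rich cells, and the 5 cells with the most silent or sporadic markers; cells with a single high marker were added after the values were seen. Scripts (Python 3.11.15, numpy 2.4.6, scipy 1.17.1, pandas 2.3.3, matplotlib 3.10.9) were tested on simulated data. Positions are from GENCODE on GRCh37. Of the 43 markers, 19 overlap a gene on the opposite strand, and no use of strand is stated for the counting.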

Additional observations from a re-analysis of the deposited data

How the results depend on the processing

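No paired analysis was possible because the replicate numbers only name cells and no result comes from a test. Of 61 alternatives to the main counts, medians and correlations, 50 kept the value within the limits set. These were 0.1 for correlations, 0.5 for log2 differences and 1.5 times for counts. For the median number of markers per cell, the limit was the SD of that number across cells, 3.82. No difference of at least 1 changed sign. With detection above TPM 10, 26 markers were silent, 8 sporadic, and the median per cell was 9. The correlation of markers with detected genes in gene-rich cells was 0.684 with detection above TPM 0 and 0.163 above TPM 10. With a pseudocount of 10, only 2 markers, ID1 and ID2, were higher in long than in short telomere cells by at least 1, against 9.04% of all genes. MIXL1, 1 marker, was higher in the short group with a pseudocount of 0.1, in gene-poor cells and without cells under 4000 detected genes, where 5.59%, 6.33% and 7.33% of all genes were. Its difference was only -0.44 with a pseudocount of 10 and -0.29 between medians. Between medians in place of means, FOXC1 (0.51), ID3 (0.65) and KRT8 (0.88) were under 1, whereas VIM (3.85) and HES1 (3.58) came to lie above it and TFAP2C (3.12), OTX2 (3.11) and SIX3 (3.01) grew. With a pseudocount of 0.1, VIM (1.75) and HES1 (1.73) also lay above 1, and with a pseudocount of 10 HES1 was at -0.18. Under the pseudocount of 0.1, 1 marker (KDR) was higher in long than in medium telomere cells and 1 (VIM) in medium, where 5.75% and 1.76% of all genes were. Rescaling without ribosomal protein genes moved the median of all genes by 0.08. For single markers, 41 of 189 long minus short and 8 of 162 long minus medium values moved past the limit. The depth of each single cell is unknown from TPM, so a TPM of 0 in a gene-poor cell may not be told apart from RNA that was missed.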
